A study of Mus musculus with 18 samples.

Results

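The 10 genes described here are members of the BCL2 family and a death receptor linked to stress of the endoplasmic reticulum (ER), out of 51499 loci in the deposited mouse gene table. They were chosen by name: the guardians Bcl2, Bcl2l1 and Mcl1, the effectors Bak1 and Bok, the BH3-only genes Bcl2l11, Bid, Bmf and Pmaip1, and the receptor gene Tnfrsf10b. Each of the 10 had 1 locus of its own, and all 10 reached a mean of 1 FPKM over the groups, as did 11929 loci in all. FPKM counts sequenced fragments scaled for transcript length and library size.

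RNA was sequenced from mouse embryonic fibroblasts (MEFs) in 6 groups of 3 libraries each. The labels give the groups as Ago2+/+ or Ago2-/- cells, each treated with DMSO (the solvent), with tunicamycin (which blocks N-glycosylation) or with 500 nM thapsigargin (which blocks the calcium pump of the ER). Ago2 encodes an Argonaute protein that binds small RNAs and silences transcripts. The lines were obtained from another laboratory, and the study states that they were not authenticated but that the Ago2-/- cells were tested by western blot for absence of the protein. All comparisons rest on 1 pooled FPKM per group, so there is no replicate spread, no test and no known depth, and the words higher and lower below compare single values.

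The labels could not be taken as they stand. With DMSO, tunicamycin and thapsigargin, Ago2 stood at 22.1, 5.75 and 17.0 FPKM in cells labelled Ago2+/+, against 5.61, 15.5 and 20.7 in cells labelled Ago2-/-. The low values therefore lay in 1 group of each labelled genotype. Hspa5, the main ER chaperone, ran from 3677 FPKM in the group labelled Ago2-/- thapsigargin to 7682 in Ago2-/- DMSO, so the highest level was in a solvent group. The genotype field of 4 of the 18 libraries also went against their titles, and titles were used. Genes of the Y chromosome (4 examined) were listed at 0 in 4 groups and were 6.03 to 32.3 FPKM in the groups labelled Ago2+/+ thapsigargin and 6.64 to 30.3 in Ago2-/- tunicamycin. Of 8 fibroblast markers, 6 to 7 were at 1 FPKM or more in every group, with Thy1 listed at 0 throughout. Their summed level was 1596 to 2975 FPKM, but the markers did not move together. Vim was 2634 FPKM under the label Ago2+/+ tunicamycin, where Col1a1 was 6.77. Under Ago2-/- tunicamycin Vim was 952 and Col1a1 651. The sum of 5 contractile markers reached 2418 FPKM under the label Ago2+/+ thapsigargin and 1800 under Ago2-/- tunicamycin, with 2.49 to 8.996 in the other 4. That sum was carried by Acta2, Tagln and Cnn1. Des was 0.397 and 0.499 FPKM in those groups against 2.95 in Ago2+/+ DMSO and 2.58 in Ago2-/- thapsigargin. Myh11 was at most 0.073 in any group. The part of these markers in the results below was not tested. None of 4 epithelial or 3 endothelial markers reached 1 FPKM, and 1 of 5 leukocyte markers, Cd68, did. In bulk RNA, fewer cells of a type and less RNA per cell cannot be told apart. Directions given below are those of the labels.

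Proteins of the BCL2 family decide whether the outer mitochondrial membrane stays intact. Guardians hold effectors and BH3-only proteins in check, effectors open pores in the membrane once freed, and BH3-only proteins carry the death signal by binding either. When unfolded proteins persist in the ER, the kinase PERK and its downstream factors ATF4 and CHOP are known to raise BH3-only genes and the death receptor DR5, encoded by Tnfrsf10b, and so to tip a stressed cell toward apoptosis.

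Promoter sequences are printed for the 4 genes whose highest group exceeded the lowest more than 3-fold, Pmaip1 aside (Bcl2, Bcl2l1, Bcl2l11 and Bmf). By that ratio these 4 differed most between groups. Bmf was itself scarce, down to 0.194 FPKM in the group labelled Ago2-/- thapsigargin, so its ratio is between small values. RefSeq promoters on GRCm38.p6 were matched for 8 of the 10 genes, with 13 start sites, and Pmaip1 and Tnfrsf10b were not searched. The 250 bases before the outermost start of each gene are given 5′ to 3′ on the gene's strand, and capitals mark GTAAACA, a motif bound by FOXO factors. The Bcl2 window is chr1:106714291-106714540 on the minus strand, the Bcl2l1 window chr2:152831729-152831978 on the minus strand, the Bcl2l11 window chr2:128125788-128126037 on the plus strand and the Bmf window chr2:118549687-118549936 on the minus strand.
Bcl2: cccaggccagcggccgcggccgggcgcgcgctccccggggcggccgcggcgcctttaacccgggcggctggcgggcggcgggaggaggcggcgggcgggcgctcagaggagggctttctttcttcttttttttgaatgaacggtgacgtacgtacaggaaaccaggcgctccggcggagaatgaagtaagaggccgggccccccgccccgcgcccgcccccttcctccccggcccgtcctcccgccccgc
Bcl2l1: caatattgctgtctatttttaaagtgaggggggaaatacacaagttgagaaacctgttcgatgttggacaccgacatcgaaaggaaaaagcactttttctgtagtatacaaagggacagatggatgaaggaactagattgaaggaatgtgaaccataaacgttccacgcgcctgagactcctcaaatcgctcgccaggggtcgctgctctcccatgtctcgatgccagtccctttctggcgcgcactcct
Bcl2l11: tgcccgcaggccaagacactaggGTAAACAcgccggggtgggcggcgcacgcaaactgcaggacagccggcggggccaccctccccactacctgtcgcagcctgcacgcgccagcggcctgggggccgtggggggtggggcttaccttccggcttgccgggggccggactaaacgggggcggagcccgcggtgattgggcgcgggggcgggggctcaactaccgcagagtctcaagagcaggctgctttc
Bmf: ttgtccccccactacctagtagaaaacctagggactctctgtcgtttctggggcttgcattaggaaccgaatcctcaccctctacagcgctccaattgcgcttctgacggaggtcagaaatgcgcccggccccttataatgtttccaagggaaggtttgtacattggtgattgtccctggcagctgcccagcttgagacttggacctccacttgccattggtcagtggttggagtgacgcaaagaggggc

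The windows of Bcl2 and Bcl2l11 held 74.8% and 72% G and C, those of Bmf and Bcl2l1 54% and 47.6%, and the median of all 32851 promoters was 52.4%. Both strands of the 13 windows were searched for 5 motifs. The ATF4-CHOP composite TGATGNAA (3.45% of all promoters), the cyclic AMP response element TGACGTCA (1.55%) and the ER stress element (0.113%) occurred in 0 of the 13. GTAAACA was found in the Bcl2l11 window above and in 3.17% of all promoters. The E2F motif TTTCGCGC was found in 1 window of Bcl2l1, at a start site inside the gene that is not printed, and in 0.256% of all promoters. These matches describe the letters of the windows and nothing more.

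**Figure D1:**
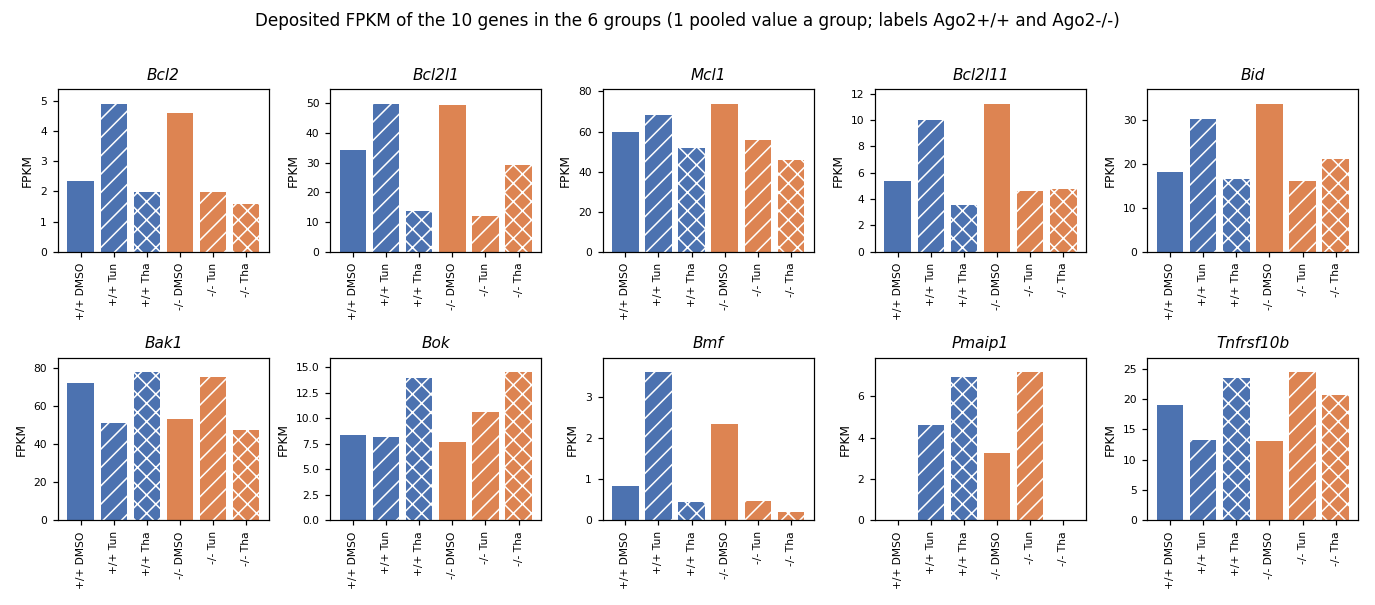
Deposited FPKM (y axis, from 0, own scale per panel) of the 10 genes in the 6 groups (x axis, as labelled; Tun, tunicamycin; Tha, thapsigargin; blue, Ago2+/+; orange, Ago2-/-), with 1 pooled value per bar and no error. Bcl2, Bcl2l1, Mcl1, Bcl2l11, Bid and Bmf have their highest bars in Ago2+/+ Tun and Ago2-/- DMSO, and Pmaip1 is at or near 0 in Ago2+/+ DMSO and Ago2-/- Tha.

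Among these 3 guardians, Mcl1 was the most abundant and Bcl2 the least in every group. Mcl1 (chr3:95658788-95663176, plus strand, GRCm38), a short-lived guardian that holds BAK1 and NOXA, stood at 59.7, 68.4 and 51.9 FPKM with DMSO, tunicamycin and thapsigargin in cells labelled Ago2+/+, and at 73.9, 55.9 and 45.9 FPKM in cells labelled Ago2-/-. Values without a group name below follow this order. Its levels were the steadiest of the 10 genes, with the highest group 1.61 times the lowest.

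Bcl2l1 (chr2:152780668-152831728, minus strand), which encodes BCL-XL, stood in the same order of groups at 34.3, 49.9, 13.7, 49.5, 12.1 and 29.4 FPKM. The groups labelled Ago2+/+ thapsigargin and Ago2-/- tunicamycin were the low ones, and the span was 4.12-fold. As a share of the summed FPKM of the 3 guardians, Bcl2l1 was 20.2% and 17.3% in those groups and 35.6% to 40.5% in the other 4, while Mcl1 was 76.8% and 79.9% against 55.5% to 62.0%. The ratio of Mcl1 to Bcl2l1 was 3.79 and 4.61 in these groups and 1.37 to 1.74 in the rest.

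Bcl2 (chr1:106538178-106714274, minus strand), the founding guardian, was 2.33, 4.90, 1.97, 4.59, 1.96 and 1.59 FPKM in that order. It was high in the groups labelled Ago2+/+ tunicamycin and Ago2-/- DMSO and within 1.59 to 2.33 FPKM in the other 4, a span of 3.09-fold. The 3 guardians summed to 123 and 128 FPKM in these high groups, and to between 67.6 and 96.3 in the rest. These sums leave out Bcl2l2, another guardian. Its locus, shared with Gm20521 and Pabpn1, was 130 to 151 FPKM over the groups and cannot be assigned to Bcl2l2 alone.

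The effectors did not share an order. Bak1 (chr17:27019810-27029009, minus strand), a pore former of the mitochondrial outer membrane, stood at 72.5, 51.0 and 77.9 FPKM with DMSO, tunicamycin and thapsigargin in cells labelled Ago2+/+ and at 53.3, 75.4 and 47.5 FPKM in cells labelled Ago2-/-. The 3 higher and 3 lower values were separated by a gap from 53.3 to 72.5 FPKM, and both sets held groups of both labelled genotypes. Bok (chr1:93685660-93695764, plus strand), an effector known to be kept low by ER-associated degradation, was 8.39, 8.15, 14.0, 7.72, 10.6 and 14.5 FPKM. Both thapsigargin groups had the highest Bok, the only one of the 10 genes for which the 2 highest groups shared a drug label. The share of all loci with such an order was not computed, so it cannot be read as particular to Bok. Bak1 exceeded Bok 3.28-fold in the group labelled Ago2-/- thapsigargin and 5.58-fold to 8.64-fold in the other 5.

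Of the BH3-only genes, Bid (chr6:120891930-120916853, minus strand), which is cut by caspase-8 to link death receptors to mitochondria, stood at 18.1, 30.2 and 16.5 FPKM with DMSO, tunicamycin and thapsigargin in cells labelled Ago2+/+ and at 33.6, 16.1 and 21.1 FPKM in cells labelled Ago2-/-. It was the most abundant of the 4 BH3-only genes chosen here in all 6 groups, at 56.8% to 80.9% of their summed FPKM. Bcl2l11 (chr2:128126038-128162547, plus strand), which encodes BIM, stood at 5.36, 9.98, 3.55, 11.2, 4.63 and 4.80 FPKM. Its highest groups were also those labelled Ago2-/- DMSO and Ago2+/+ tunicamycin, with a span of 3.16-fold.

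Bmf (chr2:118528757-118549687, minus strand), a BH3-only gene tied to the cytoskeleton, was scarce, at 0.849, 3.60, 0.442, 2.34, 0.474 and 0.194 FPKM in the same order. Only the groups labelled Ago2+/+ tunicamycin and Ago2-/- DMSO exceeded 1 FPKM. The highest was 18.5 times the lowest, a ratio between small values of unknown depth.

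Pmaip1 (chr18:66458533-66465565, plus strand), which encodes NOXA, the partner of MCL1, was the gene with the widest range. With DMSO, tunicamycin and thapsigargin it stood at 0.003, 4.61 and 6.90 FPKM in cells labelled Ago2+/+. In cells labelled Ago2-/- it stood at 3.27 FPKM with DMSO and 7.14 with tunicamycin, and it was listed at 0 with thapsigargin. A solvent group and a drug group were thus at or near 0, while the other solvent group was above 3 FPKM. Pmaip1 made up 25.2% of the summed FPKM of these 4 BH3-only genes in the groups labelled Ago2+/+ thapsigargin and Ago2-/- tunicamycin, and 9.53% and 6.48% in Ago2+/+ tunicamycin and Ago2-/- DMSO.

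Tnfrsf10b (chr14:69767472-69784411, plus strand), the gene of the TRAIL receptor DR5 and a target of CHOP, was 19.1, 13.3, 23.5, 13.1, 24.4 and 20.7 FPKM in the same order. It was lowest where Bcl2, Bcl2l11, Bid and Bmf were highest, and spanned 1.87-fold. Ddit3, the gene of CHOP itself, was 237, 282, 345, 339, 349 and 253 FPKM, so a solvent group was among its 3 highest. The gene of the TRAIL ligand, Tnfsf10, was below the mean of 1 FPKM.

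Several of the 10 genes ranked the groups alike. Bcl2, Bcl2l1, Mcl1, Bcl2l11, Bid and Bmf, 6 of the 10, had the groups labelled Ago2+/+ tunicamycin and Ago2-/- DMSO as their 2 highest, against 26.6% of all loci. Bak1, Pmaip1 and Tnfrsf10b, 3 of the 10, had Ago2+/+ thapsigargin and Ago2-/- tunicamycin highest, against 26.0% of all loci. None had Ago2+/+ DMSO and Ago2-/- thapsigargin highest, against 17.7%. These orders were counted after the values were seen and were not tested. Over the 6 groups, Pearson's r of log2(FPKM + 1) was 0.99 between Bcl2 and Bmf, 0.95 between Bcl2l11 and Bid and -0.97 between Bcl2l11 and Tnfrsf10b. With 6 points that share libraries and scaling, these values are descriptions.

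The 4 BH3-only genes summed to 48.4 FPKM under the label Ago2+/+ tunicamycin and 50.4 under Ago2-/- DMSO, where the 3 guardians were also highest, and to 24.3 to 28.3 in the other 4. The contrast rests on the choice of genes. Bad, a BH3-only gene that binds guardians, ran the other way, at 29.8, 16.0, 32.8, 16.1, 31.2 and 23.7 FPKM, and exceeded Bid in 4 of the 6 groups. With Bad and Bbc3 added, a set chosen after the values were seen, the sums were 71.3 and 73.5 FPKM in the same groups and 59.5 to 66.3 in the others. Bak1 and Bok together summed to 59.2 to 62.0 FPKM in 3 groups (Ago2+/+ tunicamycin, Ago2-/- DMSO and Ago2-/- thapsigargin) and to 80.9 to 91.8 in the others. This sum leaves out Bax, the other effector, whose locus is shared with Dhdh and Gm45808. That locus ran the other way, at 131, 128 and 108 FPKM in those 3 groups and 76.7 to 97.5 in the others. The contrast of the effectors thus also rests on the choice of genes.

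Groups with different drug labels were compared within each labelled genotype, as differences of log2(FPKM + 1). On this scale 1 is a 2-fold change, understated for scarce genes. The 4 Y chromosome genes were at 0 with DMSO under either genotype label. They were at least 6.03 FPKM in Ago2+/+ thapsigargin and 6.64 in Ago2-/- tunicamycin. Trp53 was 165 FPKM in Ago2+/+ DMSO and 10.9 in Ago2+/+ tunicamycin. It was 9.79 in Ago2-/- DMSO and 176 in Ago2-/- thapsigargin. A drug response and other differences between the groups therefore cannot be told apart. In cells labelled Ago2+/+, tunicamycin went with higher Pmaip1 (2.48) and Bmf (1.31), the 2 of 10 genes past 2-fold, where 14.0% of all loci were. Bcl2 (0.82), Bcl2l11 (0.79), Bid (0.71) and Bcl2l1 (0.53) were higher short of 2-fold, and Bak1 (-0.50) and Tnfrsf10b (-0.49) lower. The median absolute difference was 0.62 over the 10 genes and 0.34 over all loci.

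Thapsigargin in cells labelled Ago2+/+ went with higher Pmaip1 (2.98) and lower Bcl2l1 (-1.26). These 2 of 10 were past 2-fold, with 12.9% of all loci. Bok was 0.67 higher and Bcl2l11 0.48 lower on the log2 scale, and the medians were 0.32 over the 10 genes and 0.33 over all loci. Both drug groups share the DMSO group, in which Pmaip1 was 0.003 FPKM, so its differences of 2.48 and 2.98 both rest on that 1 value.

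In cells labelled Ago2-/-, tunicamycin went with lower values of Bcl2l1 (-1.94), Bmf (-1.18), Bcl2l11 (-1.12) and Bid (-1.02). These were 4 of 10 past 2-fold, with 17.9% of all loci. Pmaip1 (0.93) and Tnfrsf10b (0.85) were higher, and Bcl2 (-0.92) lower, short of 2-fold on this scale. As plain ratios Pmaip1 was 2.19-fold higher and Bcl2 2.34-fold lower. The count was 6 with a pseudocount of 0.1 or none, with 22.0% and 21.9% of all loci. The median absolute difference was 0.92, against 0.43 over all loci.

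Thapsigargin in cells labelled Ago2-/- went with lower Pmaip1 (-2.09, with the drug group listed at 0), Bmf (-1.48), Bcl2 (-1.11) and Bcl2l11 (-1.08). Again 4 of 10 were past 2-fold, with 14.3% of all loci, all 4 lower under the drug. Bok (0.83) and Tnfrsf10b (0.62) were higher, and Bcl2l1 (-0.73), Mcl1 (-0.68) and Bid (-0.65) lower. The medians were 0.78 over the 10 genes and 0.37 over all loci.

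**Figure D2:**
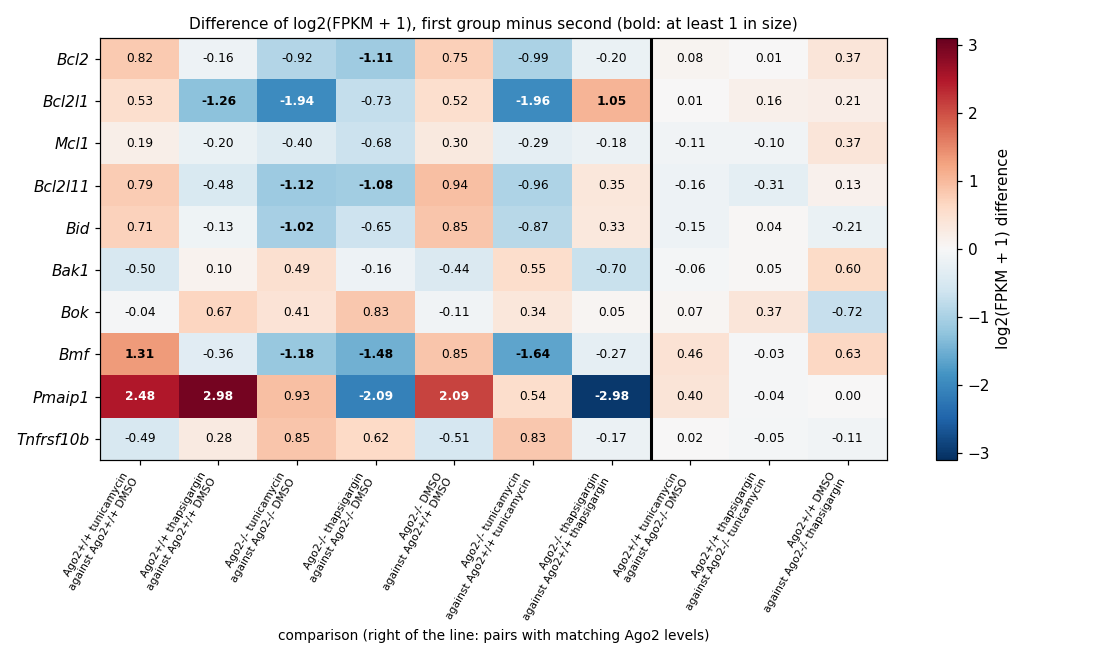
Differences of log2(FPKM + 1), first group minus second, for the 10 genes (rows) in 7 comparisons within a drug or genotype label and, right of the black line, 3 pairs with matching Ago2 levels (columns); red is higher in the first group, blue lower, and bold marks a size of at least 1. Bold values are found left of the line and none right of it.

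The labelled genotypes were then compared within each treatment. Ago2 was lower in cells labelled Ago2-/- only under DMSO, at 5.61 against 22.1 FPKM. It was 15.5 against 5.75 under tunicamycin and 20.7 against 17.0 under thapsigargin. Loss of Ago2 and other differences between the groups therefore cannot be told apart. Under DMSO, cells labelled Ago2-/- had higher Pmaip1 (2.09), the 1 of 10 genes past 2-fold, with 14.4% of all loci. That difference was 3.27 against 0.003 FPKM, so it rests on the value near 0 in Ago2+/+ DMSO. Bcl2l11 (0.94), Bid (0.85), Bmf (0.85) and Bcl2 (0.75) were higher and Tnfrsf10b (-0.51) and Bak1 (-0.44) lower, all short of 2-fold on this scale. As plain ratios Bmf was 2.76-fold and Bcl2l11 2.09-fold higher, and the count was 3 with a pseudocount of 0.1 or none. The medians were 0.63 over the 10 genes and 0.34 over all loci.

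Under tunicamycin the signs were the other way for 9 of the 10 genes, the exception being Pmaip1 (0.54). The groups labelled Ago2+/+ tunicamycin and Ago2-/- DMSO were alike over all loci (Spearman's rho 0.985) and stand on opposite sides of these comparisons. The share of all loci that changed sign was not computed, so this count cannot be read as particular to the 10 genes. Bcl2l1 (-1.96) and Bmf (-1.64) were lower in cells labelled Ago2-/- and past 2-fold, 2 of 10, with 17.3% of all loci. Bcl2 (-0.99), Bcl2l11 (-0.96) and Bid (-0.87) were lower (the count was 4 with a pseudocount of 0.1 or none) and Tnfrsf10b (0.83) and Bak1 (0.55) higher. The medians were 0.85 and 0.42.

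Under thapsigargin, cells labelled Ago2-/- had higher Bcl2l1 (1.05) and lower Pmaip1 (-2.98, with the first group listed at 0), 2 of 10, with 13.8% of all loci. Bak1 was 0.70 lower on the log2 scale, at 47.5 against 77.9 FPKM, and the remaining 7 genes differed by at most 0.35. The medians were 0.30 over the 10 genes and 0.33 over all loci.

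Ago2 itself divided the groups across the labels, and 3 pairs of groups with matching Ago2 levels were set beside the other 12. Each of the 3 differs in both genotype and drug label, as 3 of the other 12 also do. The 3 pairs were taken from earlier results of these data, so their likeness below was not an independent finding. Between the groups labelled Ago2+/+ tunicamycin and Ago2-/- DMSO, 0 of 10 genes were past 2-fold, with 1.04% of all loci, and the widest difference was that of Bmf (0.46). Between Ago2+/+ thapsigargin and Ago2-/- tunicamycin, 0 of 10 were past 2-fold, with 0.998% of all loci, and the widest was Bok (0.37). Between Ago2+/+ DMSO and Ago2-/- thapsigargin, 0 of 10 were past 2-fold, with 1.87% of all loci, and the widest was again Bok (-0.72), at 8.39 against 14.5 FPKM. That count holds at a pseudocount of 1. With 0.1 or none it was 1, and as a plain ratio Bmf was the wider, at 0.849 against 0.194 FPKM, or 4.37-fold.

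In these 3 pairs the median absolute difference of the 10 genes was 0.093, 0.050 and 0.29. In the other 12 pairs it ran from 0.24 to 0.92, with 1 to 4 genes and 12.9% to 17.9% of all loci past 2-fold. Spearman's rho over all 11929 loci was 0.977 to 0.985 within the 3 pairs and 0.876 to 0.906 in the other 12. The 3 pairs with the fewest loci past 2-fold were thus those in which none of the 10 genes was past it, at a pseudocount of 1. By the median of the 10 genes, however, the groups labelled Ago2+/+ DMSO and Ago2-/- tunicamycin (0.24) were no farther apart than Ago2+/+ DMSO and Ago2-/- thapsigargin (0.29). Whether this lies in the cells, in the labels or in the naming of the columns cannot be told apart from these values alone, and the western blot named above is not part of them.

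**Figure D3:**
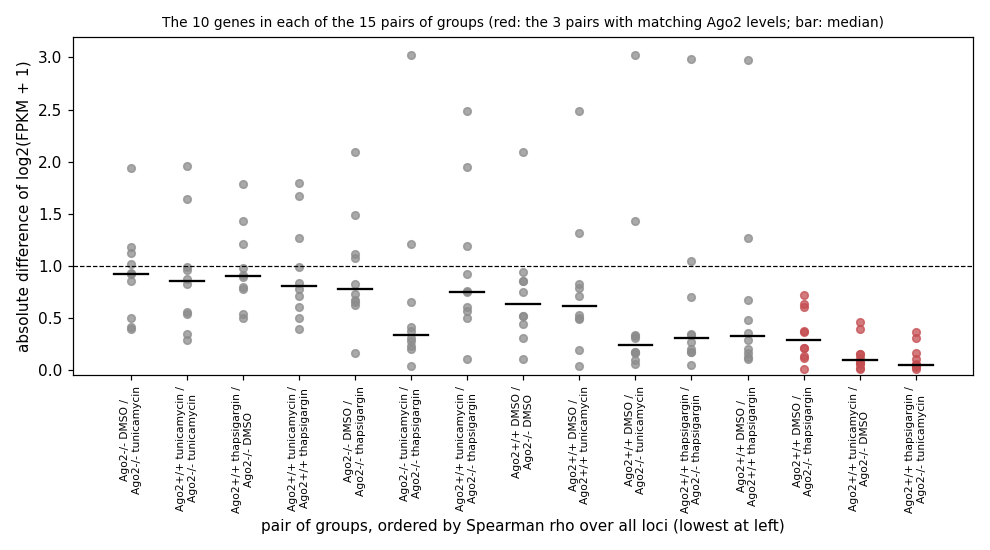
Absolute difference of log2(FPKM + 1) of the 10 genes (points) in each of the 15 pairs of groups (x axis, ordered by Spearman's rho over all loci, lowest at left), with the median as a bar and the 2-fold line dashed. The 3 pairs in red, those with matching Ago2 levels, hold no point above the line, and each of the 12 grey pairs holds 1 to 4.

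The rest of the cell death machinery was examined through lists of 51 other genes, of which 43 reached a mean of 1 FPKM. In the 4 drug comparisons, in the order given above, 6, 7, 9 and 6 of the 43 were past 2-fold (14.0%, 16.3%, 20.9% and 14.0%, against 14.0%, 12.9%, 17.9% and 14.3% of all loci). In the genotype comparisons under DMSO, tunicamycin and thapsigargin the counts were 7, 7 and 10 (16.3%, 16.3% and 23.3%, against 14.4%, 17.3% and 13.8%). Most of these shares lay near those of all loci. In the 3 close pairs the counts were 1 (Fas), 0 and 0.

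Trp53, which encodes p53, stood at 165, 10.9 and 202 FPKM with DMSO, tunicamycin and thapsigargin in cells labelled Ago2+/+ and at 9.79, 195 and 176 FPKM in cells labelled Ago2-/-. The low groups were the same 2 in which Ago2 was low and 6 of the 10 genes were highest. Mdm2, the ligase that degrades p53, was 58.0, 22.9, 38.7, 20.5, 37.6 and 52.1 FPKM, also lowest in those groups. Cdkn1a, a cell cycle inhibitor raised by p53, was 66.4, 19.6, 11.3, 30.3, 10.2 and 57.4 FPKM, lowest elsewhere. Bbc3 (PUMA), a BH3-only gene of the same route, was 6.13 to 10.5 FPKM and past 2-fold in none of the 7 comparisons.

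Of the other effector, Bax, the locus was shared with Dhdh and Gm45808, and its 76.7 to 131 FPKM cannot be assigned to Bax alone. Birc3 and Birc2, inhibitors of caspases and of death receptor signals, were highest in the groups labelled Ago2+/+ tunicamycin (17.6 and 35.3 FPKM) and Ago2-/- DMSO (22.9 and 33.7) and lowest in Ago2-/- thapsigargin (0.356 and 6.89). Casp12, a caspase placed at the ER membrane, was 1.08, 1.17, 3.90, 1.14, 7.42 and 1.33 FPKM, high only in the groups labelled Ago2+/+ thapsigargin and Ago2-/- tunicamycin. Fas, another death receptor gene, was 1.35, 1.34, 3.75, 4.19, 5.52 and 0.867 FPKM. It was the 1 gene of these lists that parted a close pair by 2-fold on the log2(FPKM + 1) scale. Birc3 came near at 0.97, with 1.66 FPKM in Ago2+/+ DMSO against 0.356 in Ago2-/- thapsigargin, wider than 2-fold as a plain ratio. Bnip3, a mitochondrial gene with a BH3-like domain, ran from 15.0 FPKM in Ago2+/+ thapsigargin to 72.1 in Ago2-/- thapsigargin.

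Among sensors of unfolded proteins, Ern1, which encodes IRE1, was 42.8, 18.4, 9.36, 20.8, 9.41 and 34.3 FPKM. It was highest in a solvent group. Eif2ak3, which encodes PERK, was 8.83, 9.09, 17.4, 9.29, 20.8 and 6.40 FPKM, high in the groups labelled Ago2+/+ thapsigargin and Ago2-/- tunicamycin. The same groups were the 2 highest for 26.0% of all loci.

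**Figure D4:**
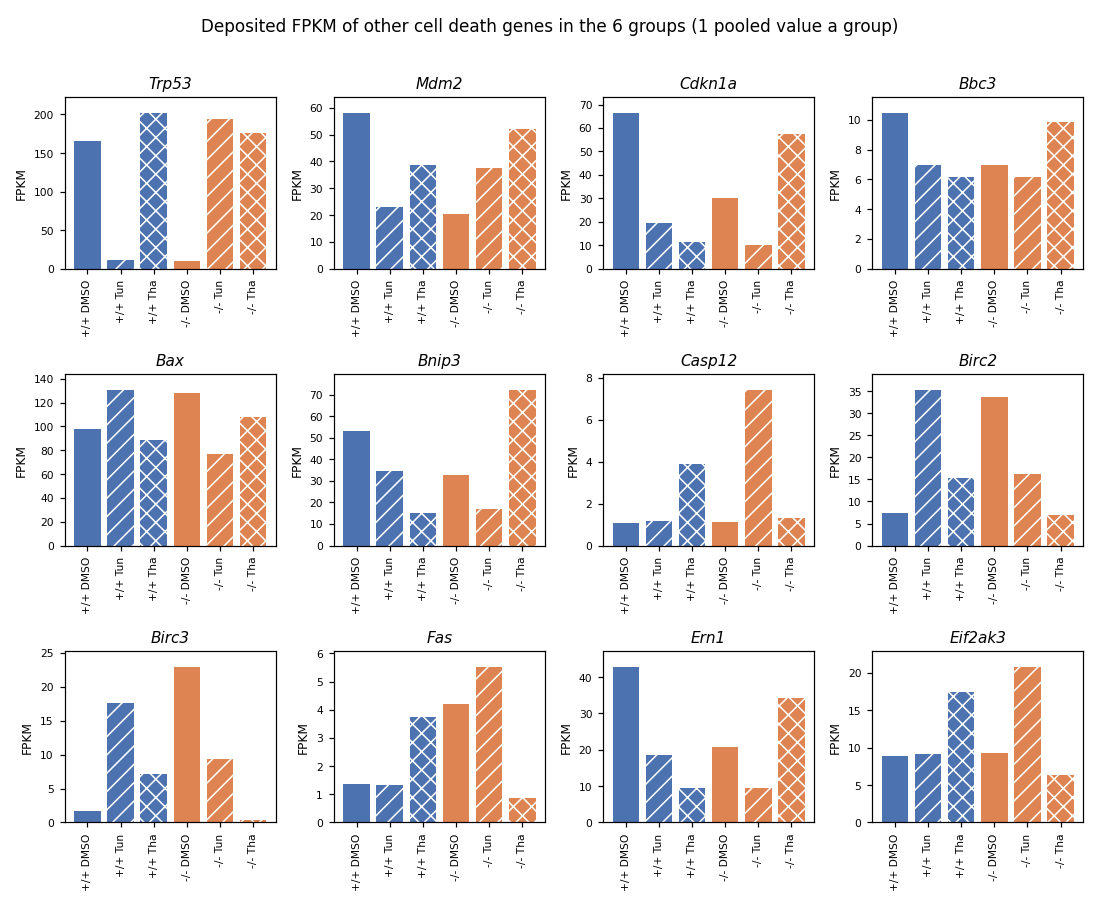
Deposited FPKM (y axis, from 0, own scale per panel) of 12 other cell death genes in the 6 groups (x axis and colours as for the 10 genes), with 1 pooled value per bar and no error. Trp53 is at 9.79 and 10.9 FPKM in Ago2-/- DMSO and Ago2+/+ Tun and between 165 and 202 in the other 4 groups.

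For the 3 genes with the widest range on the log2 scale, the loci with the most similar profile over the 6 groups were found by Pearson's r of log2(FPKM + 1) among 11574 loci. Pmaip1 was most like Cul7 (r = 0.9997), Sulf2 (0.9989) and Hoxb8 (0.998). Bcl2l1 was most like Lancl3 (0.9995), Stom (0.998) and Fahd1 (0.997), and Bmf most like Arhgef18 (0.9997), Zfp57 (0.995) and Dnajc16 (0.992). With 6 points high values are common: 342, 547 and 274 loci (2.95%, 4.73% and 2.37%) had r over 0.95 with Pmaip1, Bcl2l1 and Bmf. Hoxb8, at 0.031 FPKM under the label Ago2+/+ DMSO, 0.0037 under Ago2-/- thapsigargin and 6.66 to 14.2 in the other 4, showed the same groups near 0 as Pmaip1.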

How the data were processed

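RNA-seq of 18 MEF libraries was deposited as 1 gene table, in which the authors gave 1 FPKM per locus and group, pooled over 3 libraries. The submitters' processing notes name FastQC 0.11.7, HISAT2 2.1.0, StringTie 1.3.4d, Cuffdiff 2.2.1 and GRCm38, and the methods name Ensembl release 91. Library scaling and strand use are named in no source used here. The table has 772485 rows (51499 loci in 15 pairs of groups). The fold changes, test statistics, p-values and q-values in it are the authors' own comparisons and were not used. Columns called DCR1 were read as the Ago2+/+ labels of the same titles.

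Differences were taken as log2(FPKM + 1) with Python 3.11.15 and pandas 2.3.3. Loci averaging 1 FPKM or more over the 6 groups formed the background, and a 2-fold difference counted as past. The calculation was tested on simulated data. Named were the 10 genes, label checks, up to 3 genes per list with the widest range among those past 2-fold, Bax and Bbc3. Bad, Bcl2l2 and Tnfsf10 were named outside this rule, after the values were seen. Members and lists were chosen with earlier results of these data known. Gene positions are from GENCODE M21 (GRCm38). Depth is unknown. A gene of the lists is not reported here.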

Additional observations from a re-analysis of the deposited data

Results flagged for a closer look

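Of 20 gene and drug combinations examined, 2 had a difference past 2-fold in opposite directions under the 2 genotype labels. Bmf under tunicamycin was 1.31 higher than DMSO in cells labelled Ago2+/+ and 1.18 lower (-1.18) in cells labelled Ago2-/-, a difference of -2.49 on the log2(FPKM + 1) scale. Pmaip1 under thapsigargin was 2.98 higher in cells labelled Ago2+/+ and 2.09 lower (-2.09) in cells labelled Ago2-/-, a difference of -5.07. The Pmaip1 case rests on 0.003 FPKM under the label Ago2+/+ DMSO and 0 under Ago2-/- thapsigargin. Neither difference was tested, since each group is 1 pooled value. Over all loci Ago2+/+ tunicamycin was close to Ago2-/- DMSO (Spearman's rho 0.985), and Ago2+/+ DMSO to Ago2-/- thapsigargin (0.977). The share of all loci with such opposite differences was not computed, so they cannot be read as particular to these genes.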

How the results depend on the processing

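No filter on low values, centring on the median of all loci and loci with 1 gene name left all 10 counts of genes past 2-fold within 1.5 times. Other settings moved some counts. In the order of tunicamycin and thapsigargin in cells labelled Ago2+/+, thapsigargin in Ago2-/-, and the genotypes under DMSO, tunicamycin and thapsigargin, a mean of at least 5 FPKM, which leaves 7 of the 10 genes, gave 0, 1, 1, 0, 1 and 1, with 10.4%, 9.49%, 10.7%, 10.7%, 13.5% and 10.6% of all loci. At 1.5-fold the counts were 5 (tunicamycin, Ago2+/+), 7 (tunicamycin, Ago2-/-), 9 (thapsigargin, Ago2-/-), 5 (genotypes, DMSO), 6 (genotypes, tunicamycin) and 3 (Ago2+/+ DMSO against Ago2-/- thapsigargin), with 29.2%, 36.9%, 31.2%, 29.4%, 35.8% and 5.62% of all loci. At 4-fold they were 1 and 1 (both drugs, Ago2+/+), 0 and 1 (tunicamycin and thapsigargin, Ago2-/-), and 0 and 1 (genotypes under tunicamycin and thapsigargin), with 4.74% to 5.88% of all loci. A pseudocount of 0.1, or none, gave 3 (genotypes, DMSO), 4 (genotypes, tunicamycin) and 1 (Ago2+/+ DMSO against Ago2-/- thapsigargin), with 3.58% to 21.4% of all loci at 0.1 and 17.8%, 21.2% and 4.19% with none. Either setting also gave 3 (tunicamycin, Ago2+/+) and 6 (tunicamycin, Ago2-/-), with 17.9% and 22.0% of all loci at 0.1 and 17.5% and 21.9% with none. For single genes, centring left all 70 differences on the same side of the 2-fold line. A pseudocount cannot alter the direction of a difference, since it keeps the order of the values. With 0.1, 7 differences came past 2-fold, and with none 8 did, since scarce genes are less damped. With none, differences from a value of 0 could not be computed.

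No paired analysis was possible because the values are pooled over replicates, and for the same reason leaving out each replicate was not run.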
